A study of Homo sapiens with 12 samples.

Results

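The mRNA levels of 10 genes of the telomere machinery were measured by RNA-sequencing in WA26, a human embryonic stem cell (hESC) line. The genes are the 6 subunits of shelterin (ACD, TERF1, TERF2, TERF2IP, TINF2 and POT1) and 4 protein genes of telomerase (TERT, DKC1, NOP10 and WRAP53). They were chosen by name, and are 10 of the 28278 genes counted. All 10 passed the filter on low counts, which left 15916 genes for testing. Cells were wild-type (WT) or lacked UBQLN1 (KO), a ubiquitin-binding protein that carries unfolded proteins to the proteasome. The 4 groups, each with 2 libraries, were WT at normal O2, KO at normal O2, KO at 5% O2 and KO given NAC, the antioxidant N-acetylcysteine. Every library thus comes from the same parental line, and the KO cells were made with CRISPR-Cas9 from picked clones, but the labels do not say which clone gave which library. The labels give no O2 level for the NAC libraries and neither a dose nor a duration. The study's text describes low O2 culture both in hours and in passages, so NAC and low O2 may also differ in duration. It describes NAC over added passages with DMSO as the control, and the labels name no DMSO library. KO at normal O2 is called untreated below. NAC may differ from it in vehicle and passage as well, and these cannot be told apart from NAC. WT cells given NAC or low O2 were not analysed here. The changes below with NAC or low O2 are known for KO cells alone, and whether they depend on UBQLN1 cannot be told.

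Shelterin is the protein complex that coats telomeres, the repeated DNA at chromosome ends, and hides them from the DNA damage machinery. TERF1 and TERF2 bind the double-stranded repeat, POT1 binds the single-stranded overhang, and TINF2 and ACD (also called TPP1) bridge them. Telomerase is the enzyme that adds the repeat back, and hESCs, unlike most body cells, keep it active. The study's question was how loss of UBQLN1 relates to telomere maintenance, and whether lowering oxidative stress with NAC or low O2 alters the outcome. Only mRNA was measured in these files, so nothing below concerns telomere length or telomerase activity.

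Library totals ran from 31236968 to 41639350 counts. UBQLN1 mRNA was 221 and 197 CPM (normalised read count, with library sizes scaled by TMM) in WT and 42.3 to 62.4 CPM in the 6 KO libraries, so that no KO library reached a WT library. The 10 pluripotency markers summed to between 6451 and 7784 CPM, with none at 0 in any library. Single markers within that sum moved in both directions. From KO at normal O2 to KO with NAC, mean DNMT3B went from 2504.0 to 1277.5 CPM and mean DPPA4 from 681.0 to 1103.6 CPM. Of the other cell types checked, the 8 fibroblast markers summed to 936 CPM in NAC replicate 1 and to between 512 and 627 CPM elsewhere. In that library DCN was at 47.2 CPM and LUM at 3.86 CPM, and both were at 0 in the other 7. The summed 6 neuroectoderm markers were 387 to 418 CPM in WT, 614 to 628 in KO, 361 to 444 at 5% O2 and 227 to 240 with NAC. The 6 trophoblast markers stayed between 15.6 and 21.7 CPM and the 8 mesoderm and endoderm markers between 1.98 and 8.57 CPM in sum. Because whole cultures were sequenced, fewer cells of a type and less RNA per cell cannot be told apart.

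Compared per kilobase of transcript, the members spanned a wide range of levels. NOP10, a small RNA-binding protein of the telomerase particle, stood highest at a mean of 224 CPM per kb over the 8 libraries, and TERF1 followed at 184. These neighbours overlapped, with 180 to 304 for NOP10 and 150 to 283 for TERF1. DKC1 (dyskerin, which binds and stabilises the telomerase RNA) came next at 68.0 CPM per kb, then WRAP53, which brings telomerase to Cajal bodies, at 32.8. Neither overlapped its neighbours over the 8 libraries. ACD at 22.3 and TINF2 at 17.1 CPM per kb overlapped each other. TERF2IP (RAP1, the partner of TERF2), TERF2 and POT1 lay close together at 9.17, 7.92 and 7.64 CPM per kb, with overlapping ranges. TERT, the catalytic subunit, was lowest at 4.88, from 3.11 to 6.65 CPM per kb, a range that overlapped POT1 but not TERF2. The level of TERF1 is uncertain, since 63.6% of its transcript, read in 31-base words, is found again elsewhere in hg38, against 8.73% for TERF2, 5.85% for TERF2IP, 2.1% for NOP10 and 0 for the other 6.

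**Figure D1:**
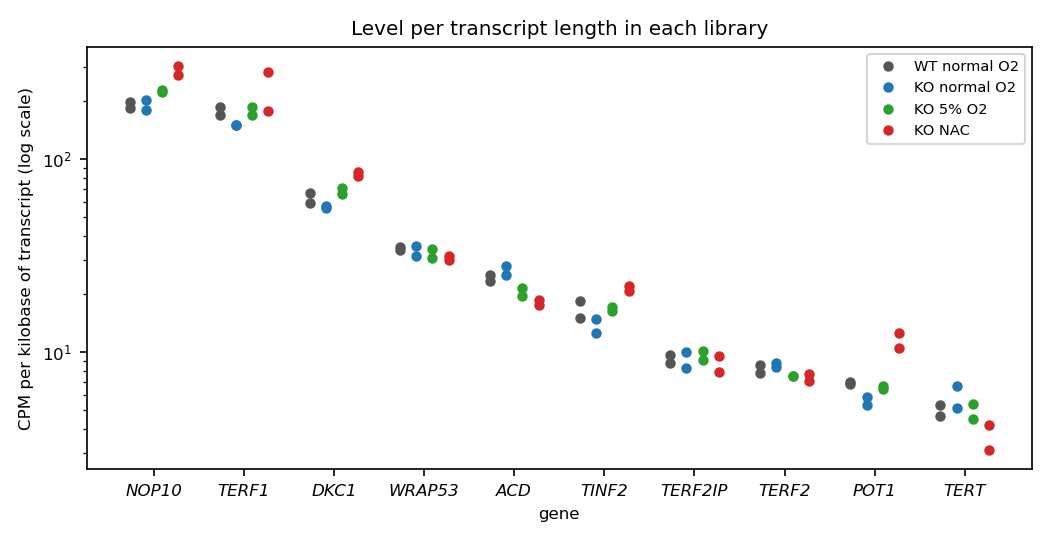
Level of each member in CPM per kilobase of canonical transcript (log axis) in each of the 8 libraries, coloured by group and ordered by the mean over libraries. NOP10 and TERF1 lie highest and TERT lowest, and the NAC libraries of POT1 and TINF2 lie above their other libraries.

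Loss of UBQLN1 at normal O2 gave no shelterin or telomerase gene an adjusted p under 0.05 by edgeR's quasi-likelihood test (p adjusted after Benjamini and Hochberg), and DESeq2 called none either. Over all 15916 genes the same rule called 1.96%. The median log2 fold change of the 10 members was -0.03, against -0.002 over all tested genes. TERT was 18.9 and 21.6 CPM in WT and 20.7 and 26.9 CPM in KO, so the groups overlapped. Its log2 fold change of 0.23 ± 0.18 (SE, n = 2 libraries per group) had an adjusted p of 0.524 by edgeR's quasi-likelihood test.

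The largest differences in KO were in POT1 and TINF2, both lower. POT1 was 27.5 and 26.8 CPM in WT and 22.8 and 21.0 CPM in KO. TINF2 was 27.0 and 32.9 CPM in WT and 22.5 and 26.7 CPM in KO. Neither gene overlapped between the groups, but for TINF2 the closest libraries were nearly equal. TERF1 and DKC1 did not overlap either, and the share of all genes without overlap was not counted. The log2 fold changes were -0.31 ± 0.12 for POT1 and -0.28 ± 0.13 for TINF2 (SE). Their unadjusted edgeR quasi-likelihood p-values were 0.0216 and 0.0485, and the adjusted ones 0.198 and 0.279. These 2 of 10 members under an unadjusted 0.05 compare with 17.6% of all genes. The study's thresholds, an absolute log2 fold change over 1 with an unadjusted p under 0.05, were set for DESeq2. Applied here to edgeR's values, they took no member and 2.57% of all genes. The other 7 members, TERT aside, lay between -0.25 (TERF1) and 0.13 (ACD), with NOP10 at -0.00403. The design resolves changes of this size poorly, since the SEs ran from 0.09 to 0.18.

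**Figure D2:**
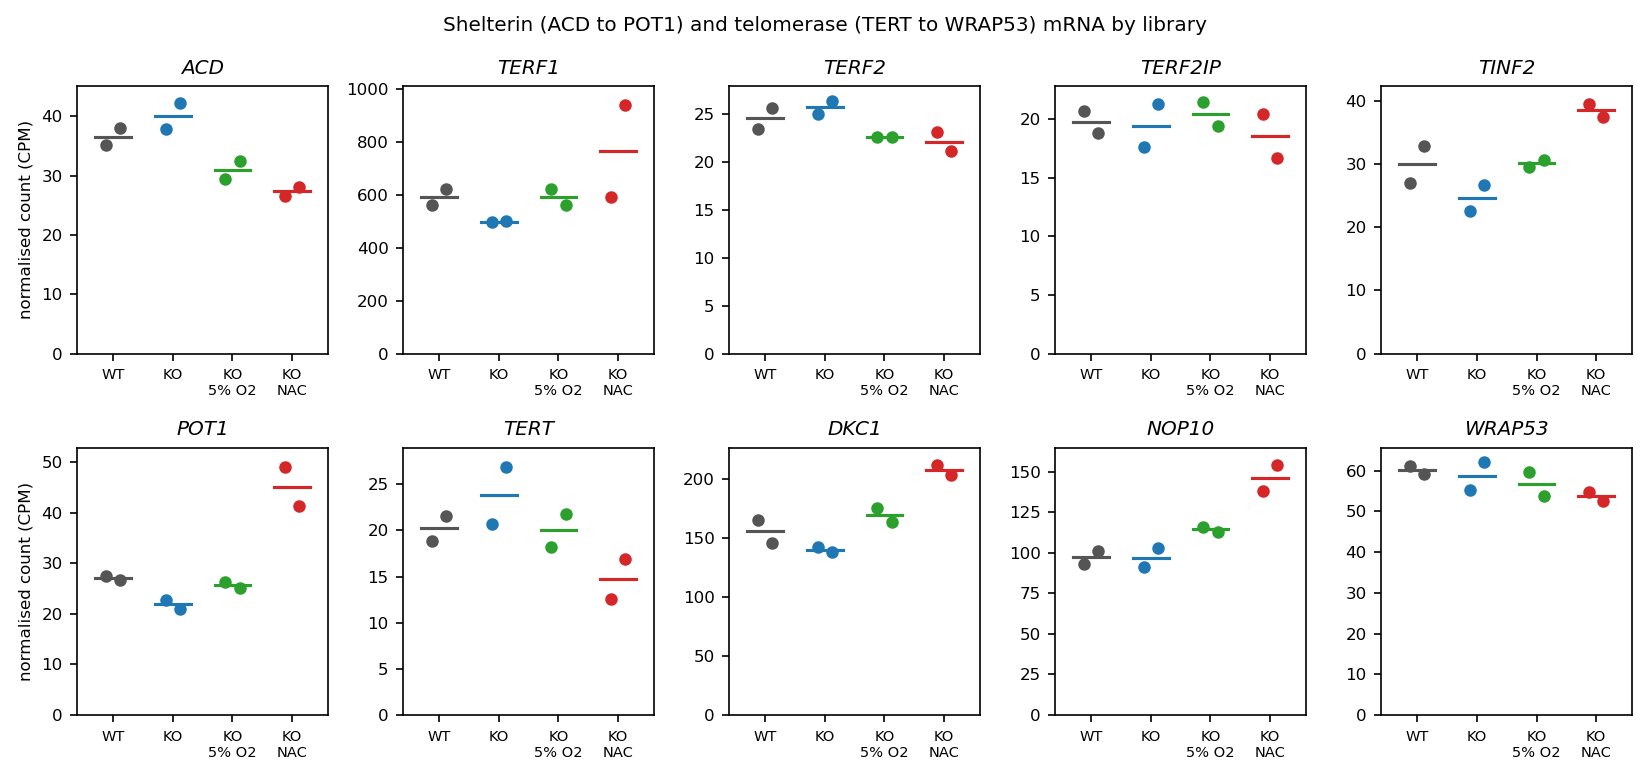
Normalised counts (CPM, axes from 0) of the 6 shelterin genes and 4 telomerase genes in every library; points are libraries, lines are group means of 2, and WT and KO with no other mark were at normal O2. With NAC, both libraries of POT1, TINF2, DKC1 and NOP10 are the highest of the 8 and both of ACD and TERT the lowest. The share of all genes with such a split was not counted. The 2 NAC libraries of TERF1 lie far apart (593 and 942).

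In KO cells given NAC, 7 of the 10 members differed from untreated KO by edgeR's adjusted p, where 44.6% of all genes did. Among them, 5 were higher (23.8% of all genes were) and 2 were lower (20.8%). The direction split within both complexes. In shelterin, POT1, TINF2 and TERF1 were higher and ACD was lower. In telomerase, DKC1 and NOP10 were higher and TERT was lower. The median log2 fold change of the members was 0.25, against 0.023 over all genes. By the study's thresholds on edgeR's values 1 member, POT1, passed, as did 9.02% of all genes.

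POT1, the single-strand binding subunit of shelterin, showed the largest change of the 10. It was 22.8 and 21.0 CPM in untreated KO and 49.0 and 41.3 CPM with NAC. Both NAC libraries stood above all 6 others, though how many of all genes did so was not counted. The rise was 1.04 ± 0.12 on the log2 scale (SE, n = 2 per group, adjusted p = 3.89e-05 by edgeR's quasi-likelihood test), or 2.06-fold. TINF2, the hub that holds TERF1, TERF2 and ACD together, was 22.5 and 26.7 CPM in untreated KO and 39.5 and 37.5 CPM with NAC. Here too the NAC libraries were the highest of the 8. The log2 fold change was 0.64 ± 0.13 (adjusted p = 0.00156, edgeR).

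ACD, which recruits telomerase to the chromosome end and binds POT1, moved the other way. It was 37.9 and 42.2 CPM in untreated KO and 26.6 and 28.1 CPM with NAC, the lowest levels of any library. It fell by 0.55 ± 0.11 on the log2 scale (adjusted p = 0.00158, edgeR). TERF1, which binds the double-stranded repeat and limits telomere elongation, was 498 and 500 CPM in untreated KO. With NAC it was 593 and 942 CPM, and the lower of these lay within the range of the WT and 5% O2 libraries. The log2 fold change was 0.62 ± 0.16 (adjusted p = 0.00831, edgeR). Without NAC replicate 2 it was 0.25, with an adjusted p of 0.0513, and without either KO library at normal O2 it was 0.62 as before but not called (adjusted p = 0.0533 and 0.0525). TERF2 went from 25 and 26.3 to 23.1 and 21.1 CPM and TERF2IP from 17.6 and 21.3 to 20.4 and 16.7 CPM. Neither was called, at log2 fold changes of -0.21 ± 0.11 and -0.07 ± 0.15 (adjusted p = 0.156 and 0.748, edgeR).

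TERT was 20.7 and 26.9 CPM in untreated KO and 12.6 and 16.9 CPM with NAC. The NAC libraries were the lowest of the 8, though the libraries within each group also differed. TERT fell by 0.69 ± 0.18 on the log2 scale (adjusted p = 0.00749, edgeR), and was not called without KO replicate 2 at normal O2. DKC1 was 142 and 138 CPM in untreated KO and 212 and 203 CPM with NAC. NOP10 was 91.0 and 103 CPM in untreated KO and 138 and 154 CPM with NAC. For both, which belong to the H/ACA core around the telomerase RNA and also serve ribosomal RNA modification, the NAC libraries stood above all others. The log2 fold changes were 0.57 ± 0.09 for DKC1 (adjusted p = 3.42e-04, edgeR) and 0.59 ± 0.10 for NOP10 (adjusted p = 4.44e-04). WRAP53 was 55.3 and 62.1 CPM in untreated KO and 54.9 and 52.5 CPM with NAC, a log2 difference of -0.13 ± 0.10 that was not called (adjusted p = 0.33, edgeR).

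NAC replicate 1 was the library with the fibroblast markers. With it left out, the 7 members kept their signs in the fit as counted. Whether the fibroblast RNA contributed to the changes was not tested. On the log2 scale POT1 was at 0.91, TINF2 at 0.60, DKC1 at 0.53, NOP10 at 0.67 and TERF1 at 0.91. ACD was at -0.51 and TERT at -0.49. In that fit the lone NAC library is assumed to vary like the other groups.

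**Figure D3:**
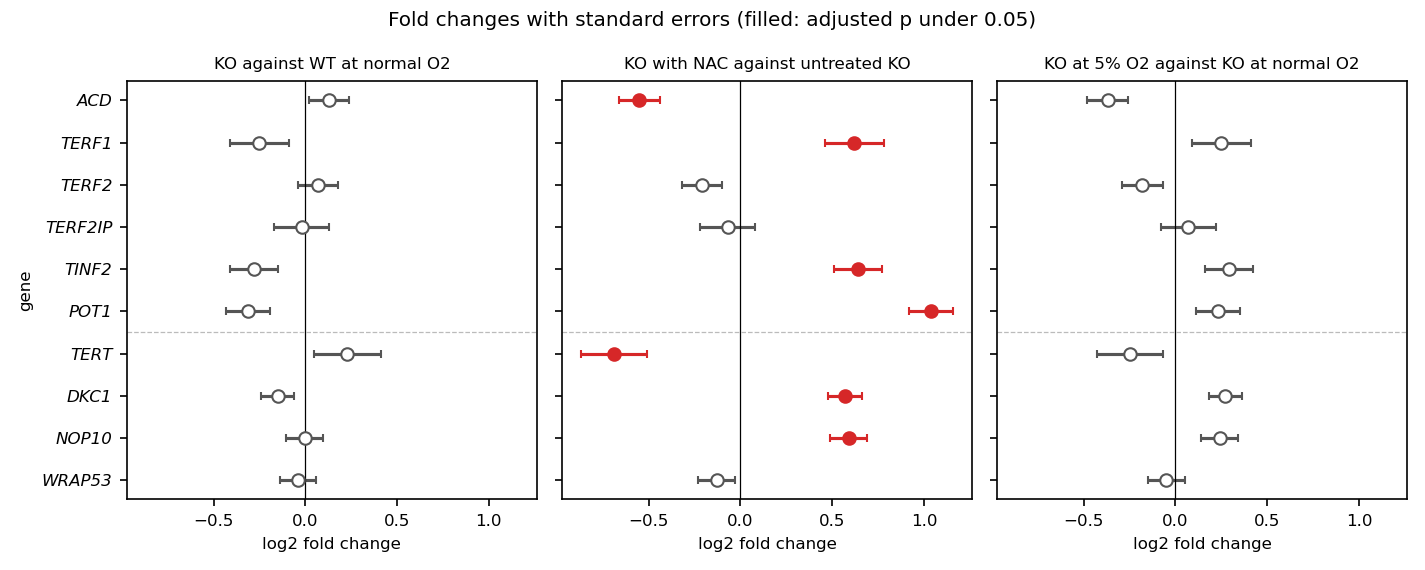
Log2 fold change of each member with its standard error in 3 comparisons, shelterin above the dashed line and telomerase below it; filled points have an adjusted p under 0.05 (edgeR). No point is filled for KO against WT or for 5% O2, and 7 are for NAC.

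The change with NAC followed the base composition of transcripts across the whole genome. Across 15499 genes, which share libraries and so are no replicates, the log2 fold change with NAC had a Spearman correlation of -0.49 with GC content and -0.24 with transcript length. The median log2 fold change was 0.52 for transcripts of at most 40% GC and -0.55 for those above 65%. The members lay along this range. POT1 (36.6% GC) and TERF1 (38.1%) are the most AT-rich of the 10 and TERT (65.7%) and ACD (62.1%) the most GC-rich. DKC1 (46.3%), NOP10 (47.9%), TERF2IP (50.2%), TERF2 (51.1%), TINF2 (55%) and WRAP53 (58.2%) lie between.

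Each library's smooth trend on length and GC content was therefore removed and the test repeated, which called 25.6% of all genes and 4 members. TINF2 was as high as before, at 0.66 ± 0.11 (adjusted p = 0.00183, edgeR). POT1 was higher by 0.47 ± 0.11 (adjusted p = 0.0092) and DKC1 by 0.35 ± 0.08 (adjusted p = 0.00815), both smaller than without the correction. ACD fell by 0.36 ± 0.09 (adjusted p = 0.0131). TERT was at 0.02 ± 0.14 (adjusted p = 0.946), TERF1 at 0.07 ± 0.16 (adjusted p = 0.788) and NOP10 at 0.22 ± 0.08 (adjusted p = 0.0757), none of them called. Whether the trend is technical or belongs to the response to NAC was not tested. When 1 KO library at normal O2 was left out as well, an alternative chosen after seeing the data, TINF2 was the one member called in either case. When NAC replicate 1 was left out instead, TERF1 was higher by 0.37, and without NAC replicate 2 it was lower, at -0.33. With the trend removed, the direction of TERF1 thus turned on which NAC library was left out. By adjusted p, TINF2 was called under all 20 alternatives fitted for this comparison (its change is below the study's fold threshold), with log2 fold changes from 0.52 to 0.77 and adjusted p from 8.49e-06 to 0.0328 (edgeR or DESeq2).

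**Figure D4:**
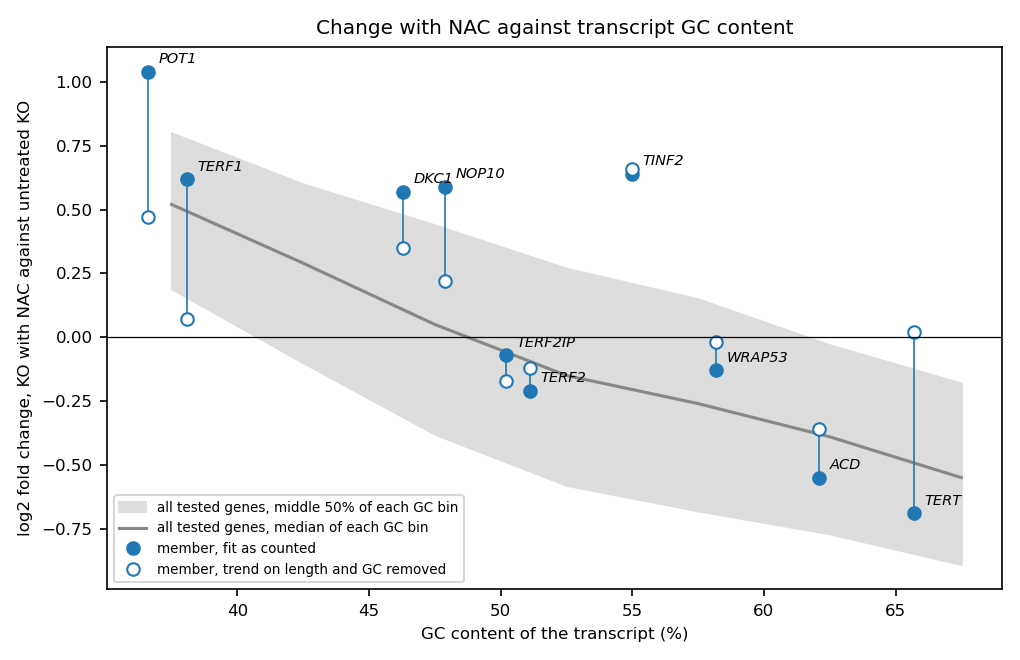
Log2 fold change with NAC against GC content of the transcript. Filled points are the members as counted and open points the same genes after the length and GC trend was taken out; the grey line is the median of all tested genes per GC bin and the band their middle 50%, with the open-ended first and last bins drawn at the edge. TERT moves from -0.69 to 0.02 and POT1 from 1.04 to 0.47, whereas TINF2 hardly moves (0.64 and 0.66).

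The promoter windows of these 4 members, from 250 bases before to 50 after the start, are shown because these genes were called with NAC both with and without the trend removed, 3 higher and 1 lower. They are RefSeq sequences of GRCh38.p14, the one at the annotated gene start where a gene had several, each 300 bases, 5′ to 3′ on the gene's strand. Capitals mark 3 motifs searched on both strands, the GC box (GGGCGG), the ETS core (CCGGAA) and the CCAAT box (CCAAT). These RefSeq starts lie inside the GENCODE gene bounds given below by 550 bases for ACD, 158 for POT1 and 122 for DKC1. A GC box and the CCAAT box of TINF2 lie side by side without sharing a base, and GC boxes of DKC1 overlap in 1 place.
TINF2, chr14:24242625-24242924, minus strand: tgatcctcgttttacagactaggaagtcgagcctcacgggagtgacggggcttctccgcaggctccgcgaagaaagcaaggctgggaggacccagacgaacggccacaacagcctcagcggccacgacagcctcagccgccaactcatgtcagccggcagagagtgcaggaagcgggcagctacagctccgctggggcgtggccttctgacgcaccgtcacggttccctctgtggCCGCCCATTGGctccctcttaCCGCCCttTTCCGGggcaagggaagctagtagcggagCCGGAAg
POT1, chr7:124929776-124930075, minus strand: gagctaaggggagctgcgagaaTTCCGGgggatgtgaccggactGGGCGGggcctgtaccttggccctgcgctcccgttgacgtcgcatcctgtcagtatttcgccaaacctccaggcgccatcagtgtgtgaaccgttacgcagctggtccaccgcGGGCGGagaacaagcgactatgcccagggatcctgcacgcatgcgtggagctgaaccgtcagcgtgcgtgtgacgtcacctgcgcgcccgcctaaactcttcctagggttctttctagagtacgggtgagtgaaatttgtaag
DKC1, chrX:154762614-154762913, plus strand: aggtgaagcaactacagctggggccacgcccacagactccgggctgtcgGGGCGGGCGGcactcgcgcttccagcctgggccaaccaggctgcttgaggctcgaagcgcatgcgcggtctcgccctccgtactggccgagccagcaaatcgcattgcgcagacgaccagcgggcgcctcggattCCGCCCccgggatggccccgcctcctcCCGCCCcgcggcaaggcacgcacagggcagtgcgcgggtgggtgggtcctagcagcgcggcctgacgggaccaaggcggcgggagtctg
ACD, chr16:67660211-67660510, minus strand: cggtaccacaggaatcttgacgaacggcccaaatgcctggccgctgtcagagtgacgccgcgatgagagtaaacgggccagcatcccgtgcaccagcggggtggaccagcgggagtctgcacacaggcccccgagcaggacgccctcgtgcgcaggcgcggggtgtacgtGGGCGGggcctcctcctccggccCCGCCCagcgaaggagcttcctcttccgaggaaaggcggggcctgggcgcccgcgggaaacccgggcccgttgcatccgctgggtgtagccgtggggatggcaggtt
TINF2, POT1 and ACD each held 2 GC boxes and DKC1 held 4, so the genes that were higher and the gene that was lower had this motif alike. A GC box was in 44.6% of the 27305 promoter windows of the table. TINF2 held 2 ETS cores and POT1 held 1, against none in DKC1 and ACD; 17.6% of all windows had at least 1. A CCAAT box was found in TINF2 and in 35.7% of all windows. The E-box CACGTG, in 7.43% of windows, was in none of the 4. Of the other members with a window, it occurred in TERT and in NOP10. The telomere repeat unit TTAGGG, in 8.94% of windows, occurred in WRAP53 alone. A match is a string of letters and says nothing of whether a factor binds there.

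On the genome, POT1 spans chr7:124822386-124929983 with 19 exons and TINF2 chr14:24238286-24242663 with 9 exons, both on the minus strand (GENCODE v44 gene bounds, hg38). Exon numbers are those of the canonical transcript. TERT spans chr5:1253147-1295068 on the minus strand with 16 exons, DKC1 chrX:154762742-154777689 on the plus strand with 15 exons, and ACD chr16:67657512-67660810 on the minus strand with 12. ACD shares 58 exonic bases with CARMIL2 on the other strand, and TERF2IP 85 bases with KARS1. The authors' counting left strand unused by its default, so reads from such stretches cannot be assigned to a gene by strand.

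Culture of KO cells at 5% O2 gave no member an adjusted p under 0.05 by edgeR, where 7.81% of all genes passed. By DESeq2, 2 members were called, ACD and DKC1, but the share of all genes that DESeq2 called is not given here. At an unadjusted p under 0.05 there were 4 members, and 24.8% of all genes. ACD was 37.9 and 42.2 CPM at normal O2 and 29.5 and 32.4 CPM at 5% O2, without overlap. Its log2 fold change was -0.37 ± 0.11 (SE, adjusted p = 0.058 by edgeR and 0.0239 by DESeq2). DKC1 was 142 and 138 CPM at normal O2 and 175 and 163 CPM at 5% O2, also without overlap. The difference was 0.27 ± 0.09 (adjusted p = 0.0849 by edgeR and 0.0392 by DESeq2). TERF1, TERF2, TINF2, POT1 and NOP10 did not overlap either, and the share of all genes without overlap was not counted. TINF2, at 29.5 and 30.7 CPM, and NOP10, at 116 and 113 CPM, lay above their normal O2 libraries by 0.29 ± 0.13 and 0.24 ± 0.10 (adjusted p = 0.189 and 0.148, edgeR). TERT was 18.2 and 21.8 CPM at 5% O2 and overlapped both WT and untreated KO. By the study's thresholds no member passed, against 2.02% of all genes. The log2 fold changes at 5% O2 also ran with GC content over all genes (rho -0.33), and without that trend the values were -0.30 for ACD, 0.18 for DKC1 and 0.28 for TINF2, none called.

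NAC and 5% O2 share the untreated KO libraries, so the 2 treatments were compared with each other directly. Treatment and duration cannot be told apart in this comparison. With NAC, 3 members were higher than at 5% O2, and 29.1% of all genes differed. They were POT1 by 0.81 ± 0.12 (adjusted p = 7.47e-04, edgeR), NOP10 by 0.35 ± 0.10 (adjusted p = 0.0193) and DKC1 by 0.30 ± 0.09 (adjusted p = 0.0278). POT1 was 26.3 and 25.1 CPM at 5% O2, close to WT. TINF2 was higher by 0.36 ± 0.13 with an adjusted p of 0.055, which became 0.0357 with the length and GC trend removed. With the trend removed POT1 was higher by 0.42, and neither NOP10 nor DKC1 was called.

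Set against WT instead of untreated KO, KO cells at 5% O2 had no member called, where 3.27% of all genes were. At an unadjusted p under 0.05 there were 2 members, ACD at -0.24 ± 0.11 and NOP10 at 0.24 ± 0.10, and 19.2% of all genes. KO cells with NAC differed from WT in 5 members, where 38.2% of all genes differed. POT1 was higher by 0.74 ± 0.12, NOP10 by 0.59 ± 0.10, DKC1 by 0.42 ± 0.09 and TINF2 by 0.36 ± 0.13. ACD was lower, at -0.42 ± 0.11 (adjusted p of the 5 from 6.06e-04 to 0.0418, edgeR). With the trend removed, POT1 was at 0.24 (adjusted p = 0.138, edgeR) and ACD at -0.21 (adjusted p = 0.117), neither called, while TINF2 (0.43), NOP10 (0.32) and DKC1 (0.25) were. The call of TINF2 against WT was lost in 9 of 16 alternatives, and without WT replicate 1 its value was 0.23 (adjusted p = 0.293).

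The wider telomere machinery was followed in 4 gene lists. None of their genes was called by edgeR in KO against WT, and DESeq2 called 1, in the list of telomere processing factors. With NAC, the H/ACA and telomerase assembly list had 4 of 10 genes higher and none lower, where 23.8% and 20.8% of all genes were. COIL (coilin, the scaffold of Cajal bodies) rose by 0.66 ± 0.11, RUVBL1, an ATPase of telomerase assembly, by 0.46 ± 0.08, and NHP2, a core partner of DKC1 and NOP10, by 0.36 ± 0.10. TERC, the RNA template of telomerase, drew 76 counts over the 8 libraries and was not called. The list of CST and DNA polymerase alpha-primase, which fills in the complementary strand at telomeres, had 4 of 6 tested genes higher and 1 lower. The primase subunits PRIM1 and PRIM2 rose by 0.61 ± 0.10 and 0.59 ± 0.10, while CTC1, the large CST subunit, fell by 0.70 ± 0.14. STN1 was 12.8 and 14.1 CPM in untreated KO and 25.6 and 16.5 CPM with NAC, a log2 difference of 0.65 ± 0.19. The higher value is that of NAC replicate 1, the library with the fibroblast markers, and without it STN1 was at 0.29 ± 0.15 and not called (adjusted p = 0.144, edgeR). Leaving out a library for these lists was decided after the values were seen. The third CST subunit, TEN1, is listed at 0 counts in every library.

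Of 20 telomere processing and associated factors, 3 were higher and 3 lower with NAC, so that fewer were called than the 44.6% over all genes. NBN and MRE11, both of the complex that senses DNA breaks, rose by 0.51 ± 0.10 and 0.48 ± 0.12. PINX1, a protein that binds TERF1 and telomerase, rose by 0.35 ± 0.11, but without NAC replicate 1 was at 0.26 and not called. SLX4, a scaffold of structure-specific nucleases, fell by 1.36 ± 0.12, from 32.1 and 28.9 CPM to 12 and 11.8 CPM (adjusted p = 1.9e-05, edgeR). TELO2 fell by 0.69 ± 0.14 and the tankyrase TNKS, which releases TERF1 from telomeres, by 0.40 ± 0.10. Of 11 tested factors known to act on TERT transcription, 2 were higher and 4 lower, against the same 23.8% and 20.8%. The ETS factor subunits GABPB1 and GABPA rose by 0.59 ± 0.10 and 0.57 ± 0.11. KLF4 fell by 1.06 ± 0.29, E2F1 by 0.66 ± 0.11 and CTCF by 0.54 ± 0.10.

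Once the length and GC trend was taken out, the 4 lists had fewer calls with NAC or changed in makeup. Of all 15916 genes 25.6% were then called, 2397 higher and 1675 lower. The H/ACA list had 2 higher, RUVBL1 (0.31) and NHP2 (0.30), and 3 lower, GAR1 (-0.74), NAF1 (-0.31) and TGS1 (-0.28). The CST list had 2 higher, STN1 (0.99, and 0.64 without NAC replicate 1) and POLA2 (0.60), and CTC1 was no longer called. The processing list had 1 higher, PIF1 (0.43), and 2 lower, SLX4 (-0.61) and ATRX (-0.37). Among the TERT factors 2 were lower, CTCF (-0.50) and E2F1 (-0.26). At 5% O2, without the correction, PRIM1 was higher by 0.47 ± 0.10 and GABPB1 by 0.41 ± 0.10, and SLX4 was lower, at -0.69 ± 0.12 (adjusted p = 0.0205, 0.0362 and 0.0109, edgeR). Over all genes 7.81% were called in that comparison. With the trend removed at 5% O2, PRIM1 was at 0.15, GABPB1 at 0.29 and SLX4 at -0.34. No gene of the 4 lists was then called.

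**Figure D5:**
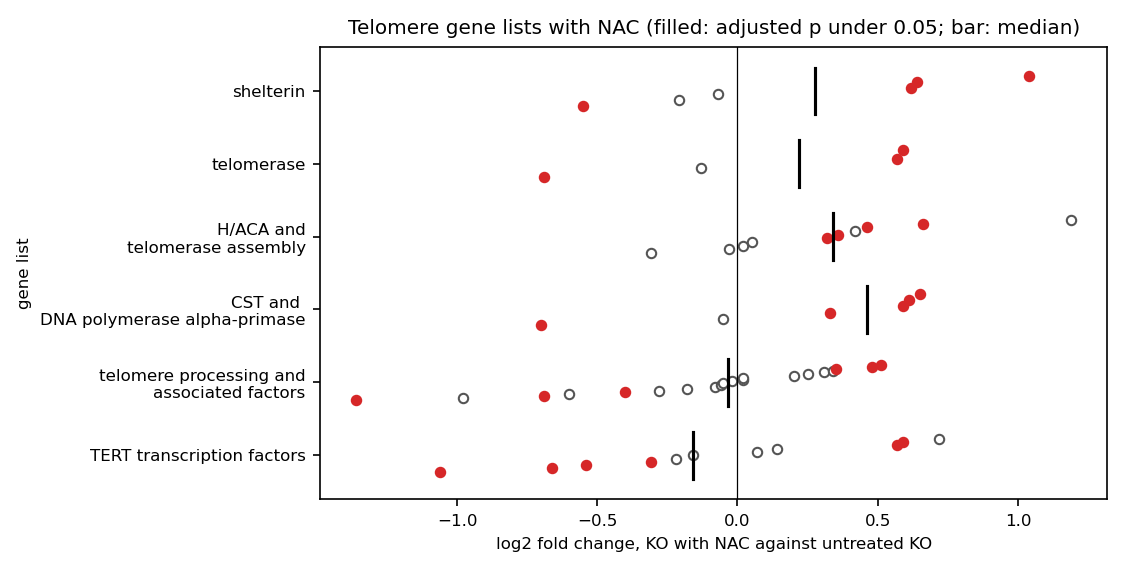
Log2 fold change with NAC of every tested gene in shelterin, telomerase and 4 lists of the telomere machinery; filled points have an adjusted p under 0.05 (edgeR) and the bar is the list's median. The called genes of the H/ACA list all lie above 0, and each of the other 5 lists has called genes on both sides.

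The genes nearest in level pattern to the called members were found by the root mean square difference of centred log2 CPM over the 8 libraries, among 12261 genes. NXT1 (0.0446) and ASB13 (0.0454) were nearest to TINF2, and SLC39A10 (0.0391) and NMD3 (0.0525) to POT1. For ACD they were GTPBP3 (0.0231) and SSBP4 (0.0483), for DKC1 PAIP2 (0.0292) and EIF2S2 (0.0318), and for NOP10 ZDHHC2 (0.04) and SORD (0.0436). TERT and TERF1 had no neighbour as close, with FAM171A2 (0.0658) and HYAL2 (0.0841) nearest.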

How the data were processed

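RNA of WA26 hESCs was sequenced by the authors, who used trim-galore for trimming, hisat2 for alignment to hg38 and featureCounts with its default options for counting. Raw counts for each gene were deposited. The annotation used for counting is not given in the sources used here. By default, strand is ignored and reads that match several places are left out. The labels describe 12 samples, of which 8 libraries were analysed in 4 groups.

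Genes were filtered with filterByExpr (minimum count 10), scaled by TMM and tested in edgeR 4.0.16 (R 4.3.3) by the quasi-likelihood test, with 1 term per group over all 8 libraries, no block and 4 residual degrees of freedom. P-values were adjusted by Benjamini-Hochberg over 15916 genes, and a gene was called at an adjusted p under 0.05. An SE is the size of the log2 fold change over the root of the F statistic. The study calls the 2 libraries of a group biological replicates without naming their cultures or clones, and p-values measure the spread between them (biological coefficient of variation 13.7%). No 2 libraries were alike within sampling noise.

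Alternatives were DESeq2 1.42.0, RLE and upper quartile scaling, 2 other filters, a replicate block, a fit of the libraries compared, the study's thresholds applied to edgeR's values, each library left out, and a correction that took out, library by library, a smooth fit of log2 CPM on length and GC content of transcripts (mgcv 1.9.3), which were known for 97.4% of tested genes. The scripts were tested on simulated data. All 10 members were named in every comparison. From each context list, up to 3 called genes in each direction with the largest change were named, and others that gained a call with the trend removed or had too few counts were named after their values were seen. The members and lists were chosen with earlier results of these data known.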

Additional observations from a re-analysis of the deposited data

How the results depend on the processing

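Of 106 member counts recomputed, 86 were within 1.5 times the value given, and of 1000 fold changes 888 kept their direction and their side of the threshold. In KO against WT no alternative called a member. With NAC against untreated KO the count was 7 under every alternative that left out no single library, except 4 with the length and GC trend removed and 1 by the study's thresholds. It was 5 to 7 with 1 library left out and 1 to 6 with the trend removed as well, the 1 arising without either KO library at normal O2. At 5% O2 the count was 2 by DESeq2, 1 with no filter, 1 where every library had to reach 10 counts, 1 with the replicate block and 3 in a fit of the libraries compared, and 0 to 3 with 1 library left out. NAC against 5% O2 had 6 with no filter, 5 with the replicate block, 1 in a fit of the libraries compared, 0 by the study's thresholds and 1 to 4 with 1 library left out. NAC against WT had 3 (TINF2, NOP10 and DKC1) with the trend removed and 0 by the study's thresholds. The replicate numbers did not pair the libraries (correlation of deviations from -0.0226 to 0.0816), and the block changed no other count by over 1.5 times.

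The largest change of sign was that of TERF1 with NAC, from a called 0.62 to a called -0.33 (adjusted p = 0.0124, edgeR) with the trend removed and without NAC replicate 2. TERT with NAC went from a called -0.69 to 0.02 with the trend removed, and to 0.15 with 1 library left out as well, neither called. With the trend removed the sign also changed for TERF2IP 0.03 and NOP10 0.10 in KO against WT, TERT 0.08 at 5% O2, TERF2 0.02 in NAC against 5% O2, TERT 0.15 in 5% O2 against WT, and TERF1 -0.09 and TERT 0.08 in NAC against WT. With NAC, the trend removed and 1 library left out, WRAP53 reached 0.04. In 5% O2 against WT, TERF1 was 0.01 with the block, and TINF2 was -0.01 with upper quartile scaling and -0.00088 where every library had to reach 10 counts. Leaving out 1 library gave ranges that crossed 0 in KO against WT for TERF2IP (-0.16 to 0.11), NOP10 (-0.09 to 0.08) and WRAP53 (-0.12 to 0.05), and with NAC for TERF2IP (-0.22 to 0.07). At 5% O2 they did so for TERF2IP (-0.06 to 0.21) and WRAP53 (-0.13 to 0.04), in NAC against 5% O2 for TERF2 (-0.10 to 0.03), and in 5% O2 against WT for TERF1 (-0.08 to 0.07), TERF2IP (-0.02 to 0.12), TINF2 (-0.13 to 0.15) and TERT (-0.15 to 0.11). In NAC against WT, TERF2IP ran from -0.24 to 0.05. The cause was not tested. With 2 libraries per group, precision is limited by their number.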
